A study of Drosophila melanogaster with 3 samples.

Results

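Genes that move or anchor nuclei and lipid droplets were examined for binding of the protein CG13894: *klar*, *koi*, *Msp300*, *BicD*, *Khc*, *Dhc64C*, *Lsd-2* and *halo*, which are 8 of the 13945 protein-coding genes annotated on the arms used. They were chosen by name with these peak lists in view, which hold one of their strongest peaks inside *klar*, so every count and rank of these 8 genes is a description and carries no test. For each gene, all peak summits in the gene and in 2 kb to each side were taken from every list. The thresholded list held 27 such summits of its 7434.

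Peak lists came from chromatin immunoprecipitation followed by sequencing (ChIP-seq) of whole *Drosophila melanogaster* embryos, 2 to 24 h old. All embryos were of 1 transgenic line that stably carries CG13894 fused at its C-terminus to green fluorescent protein (GFP), and the precipitation used an antibody to GFP. There were 3 biological replicates of 1 group, and no precipitation from untagged embryos was among the lists used. Embryos of all these ages and all their cell types were mixed, so a peak cannot be placed in any one tissue. The labels call them biological replicates and do not say whether they were separate collections, so their spread may be partly technical.

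Forms of Klar and of Msp300 carry a KASH domain, which anchors a protein in the outer nuclear membrane. There it meets SUN-domain proteins of the inner membrane such as Koi (Klaroid). Such pairs bridge the nuclear envelope and couple the nucleus to the cytoskeleton: in flies Klar is known for the movement of photoreceptor nuclei along microtubules, and Msp300, a giant actin-binding nesprin, for the position of nuclei in muscle. Lipid droplets of the early embryo travel in both directions along microtubules, carried by kinesin-1 (heavy chain Khc) and cytoplasmic dynein (heavy chain Dhc64C), and Klar, the droplet-coat perilipin Lsd-2, the dynein adaptor BicD and Halo are known for their part in this transport.

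The sequences at the summits on which the account of these genes turns are shown first, as 101 bases centred on the summit, on the plus strand of the Release 6 (dm6) RefSeq genome. The first is the strongest summit of all 8 genes, the next pair are weaker *klar* summits that share a word with it, the fourth is the summit at the 5′-most *klar* start site, and the last 2 are the strongest summit of *Msp300* and the single summit of *Dhc64C*. Capitals mark the words searched, on either strand: AGACCCC and GATCCGA, and GGTCACAC, the core of the element bound by the promoter factor M1BP, which stands on the minus strand in the fourth sequence. In the first sequence a GATCCGA and an AGACCCC overlap by 1 letter, so they run together in capitals, and a second AGACCCC follows.
klar intron, chr3L:510969-511069: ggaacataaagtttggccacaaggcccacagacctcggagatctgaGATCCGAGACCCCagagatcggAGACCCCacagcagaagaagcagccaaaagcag
klar intron, chr3L:475135-475235: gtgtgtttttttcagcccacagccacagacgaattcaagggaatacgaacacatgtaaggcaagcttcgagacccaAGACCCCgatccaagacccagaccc
klar intron, chr3L:489579-489679: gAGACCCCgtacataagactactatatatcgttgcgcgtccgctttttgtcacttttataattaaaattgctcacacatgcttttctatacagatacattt
klar promoter, chr3L:540656-540756: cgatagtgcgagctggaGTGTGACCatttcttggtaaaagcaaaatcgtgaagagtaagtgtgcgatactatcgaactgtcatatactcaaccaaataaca
Msp300 intron, chr2L:5145703-5145803: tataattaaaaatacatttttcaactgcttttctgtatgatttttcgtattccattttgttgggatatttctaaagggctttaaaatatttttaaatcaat
Dhc64C intron, chr3L:4825002-4825102: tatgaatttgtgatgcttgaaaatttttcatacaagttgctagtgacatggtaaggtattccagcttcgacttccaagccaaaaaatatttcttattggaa

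Each of 6 words was counted in 200 bp windows around the summits, on both strands. AGACCCC stood in 3 of the 27 windows of these genes, all in *klar*, and in 2.14% of all 7434 windows, against 0.995% and 0.901% of windows 1000 bp to the right and to the left. GATCCGA stood in 1 of the 27, the strongest *klar* summit, in 2.33% of all windows and in 6.0% of the 500 strongest. GGTCACAC also stood in 1 of the 27, at the *klar* promoter, and in 2.15% of all. TATCGATA, the element of the replication-linked factor DREF, GAGAGAG, a purine repeat, and CACAGTGG stood in 0 of the 27 and in 3.19%, 5.25% and 1.78% of all windows. The word AGACCCC, the word GATCCGA and the word CACAGTGG were chosen after values of these data had been seen, and a match describes only the letters present.

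Whole-list facts set the scale. There were 30000 peaks in each replicate's list and as many in the pooled one, and the thresholded list holds the 7434 strongest pooled peaks. Signal is the peak caller's own value and its scale differs between lists, with medians of 145, 112 and 107 over the 7434 strongest peaks of replicates 1, 2 and 3. Strength is therefore given as a rank within a list, where 1 is the strongest, or as relative signal, which is the signal divided by that median of the same list. A promoter summit is one within 500 bp of any annotated transcription start site (TSS). The lists hold no read counts, so the depth behind each value is unknown.

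Of the 8 genes, 6 held at least 1 thresholded summit, against 39.6% of all protein-coding genes by the same rule. Among coding genes over 100 kb, the length class of *klar* and *Msp300*, that share was 80.5%. It was 62.8% at 10 to 20 kb (*BicD* and *Dhc64C*), 49.2% at 5 to 10 kb (*koi*, *Khc* and *Lsd-2*) and 23.5% up to 1 kb (*halo*). A promoter summit stood at one of their own start sites in 5 of the 8 (*klar*, *koi*, *Msp300*, *BicD* and *Lsd-2*), against 22.8% of all coding genes. That share varied with gene length: among coding genes within 25% of the length of each, the share was 53.2% for *klar*, 52.1% for *Msp300*, 40.2% for *BicD*, 32.0% for *koi* and 31.9% for *Lsd-2*. It was 42.7% for *Dhc64C*, 29.0% for *Khc* and 8.96% for *halo*, the genes without one. *Klar* held 11 of the 27 summits, *Msp300* 8, *koi* 3, *BicD* and *Lsd-2* 2 each, and *Dhc64C* 1. *Khc* and *halo* held none. Taking the 7434 strongest peaks of each replicate alone, the 8 genes held 28, 27 and 32 summits in replicates 1, 2 and 3, which is 29.0 ± 2.65 (SD, n = 3).

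Of the 27 summits, 10 were at promoters (37.0%, against 43.6% of all thresholded summits) and 16 in introns (59.3%, against 37.7%). The last lay in a coding exon of 1 *klar* transcript and in introns of the others that span it. That class held 0.525% of all summits, and 0 of the 27 were intergenic, against 15.2% of all. Since the summits were taken in and beside genes, with 24 of the 27 inside their own gene, the choice of regions largely fixes the lack of intergenic summits and raises the share in introns. Among the 16 intronic summits, 14 lay in the first intron of some transcript (87.5%), compared with 65.6% of all intronic summits. A first intron of any 1 transcript was enough, and *klar* and *Msp300* have 5 start sites each, so many positions in them can meet this rule. The signal of the 27 summits had a median of 395, against 338 for the whole list, and 17 of the 27 were above that whole-list median. A replicate listed a summit when one of its peaks contained it: 25 of the 27 were listed in all 3 replicates, against 93.6% of all thresholded summits. In the strongest 7434 peaks of all 3 replicates stood 18 of the 27, against 60.6% of all.

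The replicates were closest at the strongest summits. The 5 summits with a relative signal of at least 2 in the thresholded list, which are 2 of *klar* and 3 of *Msp300*, differed between the highest and the lowest replicate by 1.05 to 1.2 times. The other 20 that all replicates listed differed by 1.18 to 3.01 times, with a median of 1.48. A replicate's value is that of its nearest summit whose peak contains the position. That summit lay up to 88, 180 and 143 bp away in replicates 1, 2 and 3, so some values may belong to another summit of the same stretch. Just above the threshold stood a *klar* summit with a signal of 222 (rank 7177), and just below it an *Msp300* summit of the pooled list with 215 (rank 7529).

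**Figure D1:**
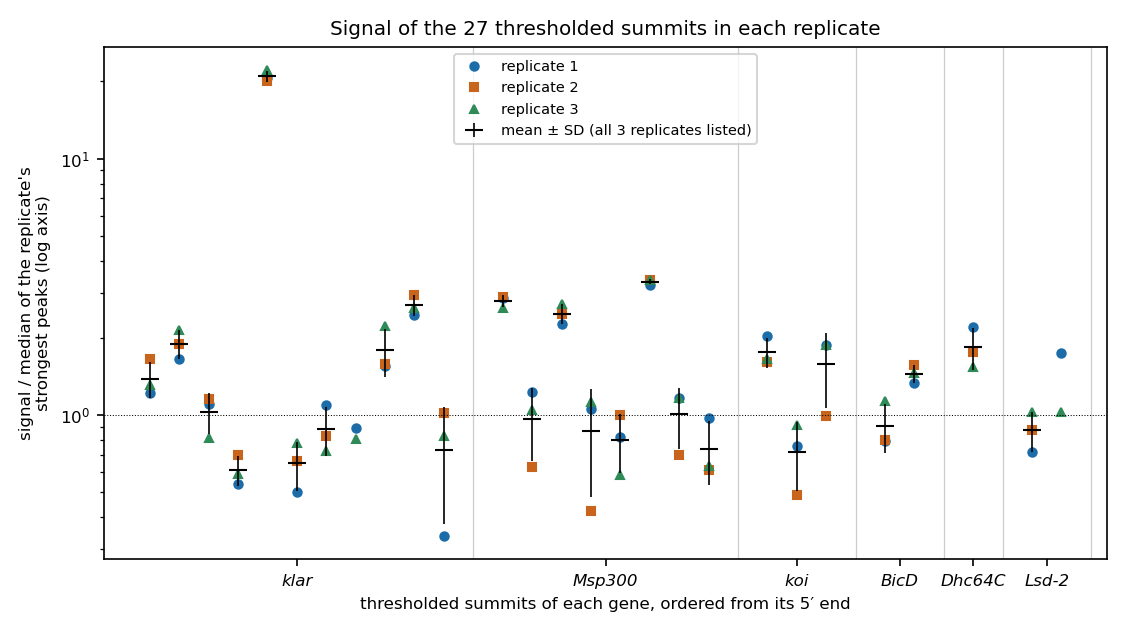
Relative signal (signal divided by the median of that replicate's 7434 strongest peaks, log axis) of each of the 27 thresholded summits in replicates 1 to 3, grouped by gene and ordered from the 5′ end; bars are mean ± SD where all 3 replicates list the summit. One *klar* summit, at 20 to 22.1, stands above all others, and the replicates lie closest together at the strongest summits.

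*Klar* (FBgn0001316) lies on the minus strand at chr3L:434083-540614. It is 106532 bp long, with 9 transcripts from 5 start sites, and exons make up 11.0% of it. Its coding sequence ends at 435121 in 7 transcripts and at 442879 in the other 2, so the gene has transcripts with different protein ends. The 11 thresholded summits fall in separate stretches: 2 near the 5′-most start site, 3 in the intron that holds the strongest one, 3 in the middle of the gene and 3 near its 3′ start sites. The largest interval without a thresholded summit runs 33.8 kb, from 441426 to 475185.

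The strongest of them, at 511019, had relative signals of 20.6, 20 and 22.1 in replicates 1, 2 and 3, with a mean of 20.9 ± 1.08 (SD, n = 3). Its ranks there were 7, 8 and 7 of 30000, and its rank in the thresholded list was 7, with a signal of 7580. The replicates' own summits lay within 3 bp of that position, so all 3 placed it at the same bases. It held 63.4% of the summed thresholded signal of *klar*, 7.90 times the signal of the next strongest summit of the gene. The peak is 679 bp wide and lies in an intron of 4 transcripts, 29595 bp downstream of the 5′-most start site and 20196 bp upstream of the next *klar* start site. The nearest start site of any gene is that of the long noncoding RNA gene *lncRNA:CR46002* (chr3L:509297-509890, plus strand), 1722 bp away, so the summit is not a promoter summit of any annotated gene. Its sequence, with the GATCCGA and both AGACCCC words, is the first of those shown.

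The 2 summits near it were weak. The one at 513942 had relative signals of 1.11, 1.16 and 0.816, and the one at 512036 had 0.542, 0.701 and 0.591. Both lie in the same intron, and their nearest start site is again *lncRNA:CR46002*, 4645 and 2739 bp away. The latter was the weakest thresholded summit of the gene.

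At the 5′-most *klar* start site (540614, used by 4 transcripts) a summit stood 92 bp upstream. Its relative signals were 1.22, 1.65 and 1.31 (mean 1.39 ± 0.227) and its thresholded rank 1913. It lies between *klar* and the divergent neighbour *BORCS6*, whose start site is 145 bp away and whose human counterpart is a subunit of a complex that positions lysosomes, so it counts as a promoter summit of both genes. Further in, at 536179, 4435 bp downstream of that start site and in the first intron of all 4 transcripts from it, a summit had relative signals of 1.66, 1.89 and 2.15 (mean 1.9 ± 0.245, rank 979).

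Near the 3′ end of *klar* the start sites are more closely spaced. A summit 330 bp upstream of the start site at 441096 had relative signals of 1.55, 1.58 and 2.23 (mean 1.79 ± 0.384, rank 1353). The summit 584 bp downstream of the same start site, at 440512, is the second strongest of the gene, with 2.46, 2.95 and 2.62 (mean 2.68 ± 0.25, rank 466). It is the one in a coding exon, though of only 1 of the 6 transcripts that span it. Another, at 439588, varied most between replicates of all the summits listed in all 3, with 0.339, 1.02 and 0.829. Replicate 1 was the low one there, with rank 17108 against 3552 and 5199.

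The 3 summits of the middle of *klar* were weak. That at 489629, 1194 bp downstream of the start site at 490823, had relative signals of 0.502, 0.661 and 0.783, and that at 484563 had 1.1, 0.833 and 0.728. The last, at 475185, was listed in replicates 1 and 3 (0.889 and 0.81) and not in replicate 2, whose nearest summit was 6212 bp away. Of the 5 *klar* start sites, therefore, those at 540614 and 441096 had a promoter summit, and the nearest thresholded summits to those at 490823, 448132 and 437774 were 1194, 6706 and 1814 bp away.

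**Figure D2:**
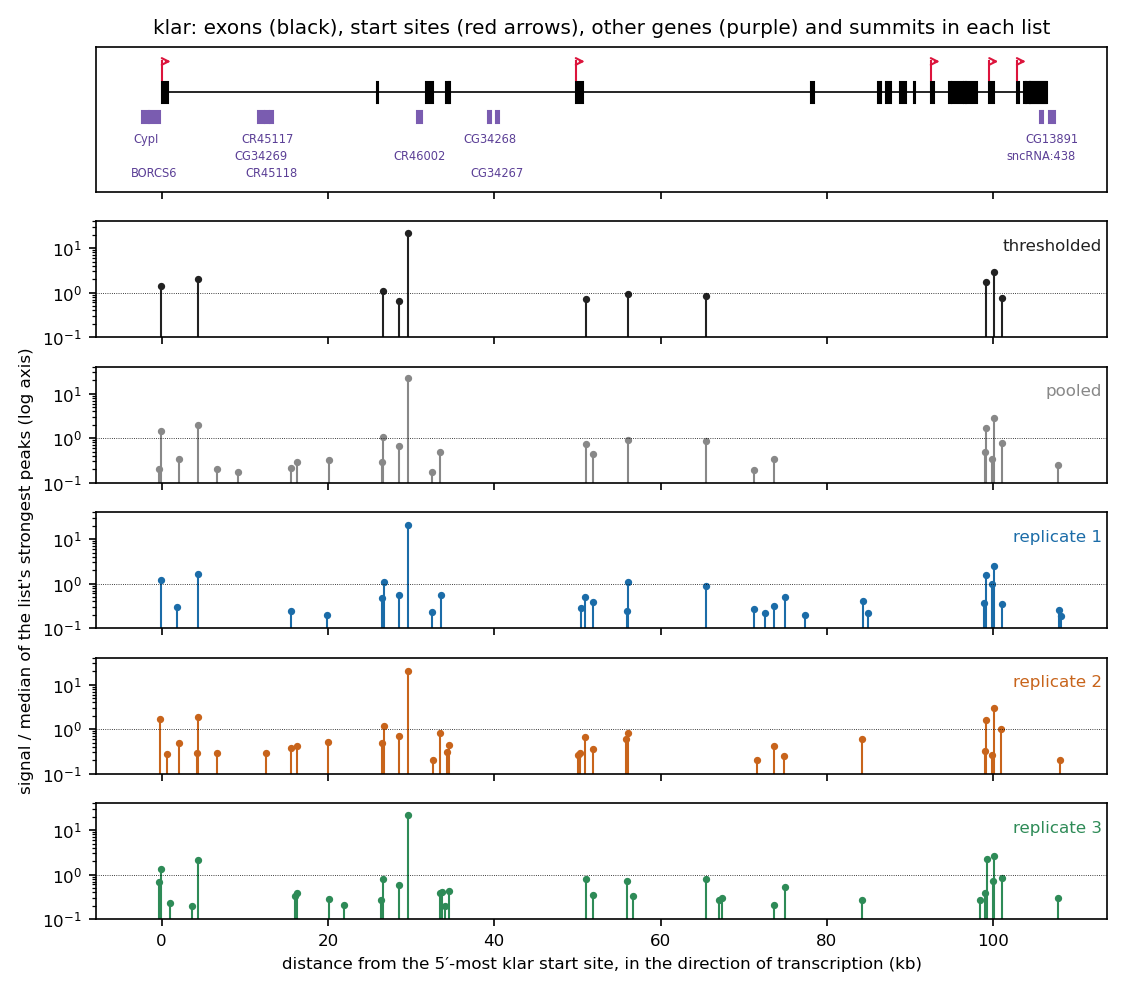
Map of *klar* in the direction of transcription (kb from its 5′-most start site), with exons, start sites and other genes on top, and below, for each list, the relative signal of every summit (log axis; dotted line at 1). The summit of rank 7 in the thresholded list stands about 30 kb in, at the same place in all 5 lists, and the second strongest lies about 100 kb in.

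Another 7 genes lie inside *klar*: the noncoding *lncRNA:CR46002*, *lncRNA:CR45117*, *lncRNA:CR45118* and *sncRNA:438*, and the coding *CG34267*, *CG34268* and *CG34269*. None of these 7 had a thresholded or pooled summit within 500 bp of its start site. Replicate 2 listed a single summit of rank 21377 near the start sites of *lncRNA:CR45117* and *CG34269* (330 and 336 bp), and replicates 1 and 3 listed 0 near any of the 7. Below the threshold the pooled list held another 16 summits in *klar* and its flanks, with ranks from 10476 to 29218.

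*Klar* held 9, 10 and 12 summits among the strongest 7434 peaks of replicates 1, 2 and 3, or 10.3 ± 1.53 (SD, n = 3). Counting only thresholded summits found in the strongest peaks of both other replicates, it kept 8 without replicate 1, 8 without replicate 2 and 7 without replicate 3. By the same rule the whole list kept 5048, 5193 and 5286 of its 7434 summits. Of 94 coding genes within 25% of its length, 82 (87.2%) held fewer summits, 3 the same number and 9 more, with a median of 4.5. The 3 with the same count were *pyd*, *Pde1c* and *osp*, the genes most like *klar* by length and count. Their strongest summits had ranks of 1394, 1502 and 205. No comparison of rank with *klar* is drawn from them, since its strongest peak was in view when the genes were chosen.

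*Koi* (FBgn0265003; chr2R:6811019-6818199, plus strand, 7181 bp) encodes the SUN-domain partner of Klar and has 3 thresholded summits. One, 11 bp downstream of the start site at 6812532, had relative signals of 1.88, 0.989 and 1.87 (mean 1.58 ± 0.512, rank 1378). Replicate 2 was the low one there, by 1.9 times from the highest. A weaker one, 64 bp downstream of a start site near the gene's 5′ end, had 0.762, 0.487 and 0.916 (mean 0.722 ± 0.217). The strongest, with 2.03, 1.61 and 1.65 (mean 1.76 ± 0.232, rank 1110), lies 1156 bp upstream of *koi*. At that distance it is not a promoter summit of *koi*, but it is one of the neighbour *CG15237*, whose start site is 97 bp away. Of 1139 coding genes within 25% of its length, 1020 held fewer than 3 summits.

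*Msp300* (FBgn0261836; chr2L:5100877-5207002, plus strand, 106126 bp) is almost as long as *klar* and has 11 transcripts from 5 start sites. Its 8 thresholded summits fell into 2 groups, 5 within the first 15 kb and 3 at 45 to 51 kb, with 30.0 kb between the groups. The strongest, at 5145753, had relative signals of 3.22, 3.37 and 3.37 (mean 3.32 ± 0.0866, rank 312) and stood 633 bp upstream of the start site at 5146386. It lies in an intron of 7 transcripts, outside the 500 bp promoter distance. Its 200 bp window was the poorest in G and C of the 27, at 21.0%, where the 27 ranged up to 55.0%, and its sequence is the AT-rich one shown.

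In the first group of *Msp300* a broad peak of 1235 bp covers the start site at 5108512 and holds 2 summits. That 337 bp upstream had relative signals of 2.86, 2.9 and 2.61 (mean 2.79 ± 0.157, rank 410), and that 9 bp upstream had 1.23, 0.629 and 1.05 (mean 0.97 ± 0.308). Downstream, in the first intron of 3 transcripts, stood a summit at 5111602 with 2.27, 2.48 and 2.72 (mean 2.49 ± 0.225, rank 527). The remaining summits of the gene had mean relative signals between 0.742 and 1.01. At 3 of these 4, replicate 2 was the lowest, most so at 5113360 with 1.06, 0.422 and 1.13. The first start site of the gene, at 5100877, had no thresholded summit within 500 bp, and the nearest pooled one, 624 bp away, was of rank 9339 and closer to *ND-13A*, which encodes a subunit of respiratory complex I.

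The 3′ part of *Msp300* held no summit. The last summit stood 50.7 kb from the 5′ end in the thresholded and pooled lists and 51.6, 50.8 and 50.8 kb in replicates 1, 2 and 3. The 54.6 kb beyond the last summit of any list hold no summit in any of the 5 lists. They are 79.9% exon, against 50.8% of the gene before that point. *Msp300* held 9, 10 and 11 summits among the strongest peaks of the replicates (10 ± 1.0, n = 3), and 5, 7 and 6 of its 8 without replicate 1, 2 and 3 in turn. Of 94 coding genes within 25% of its length, 66 held fewer summits and 23 more.

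**Figure D3:**
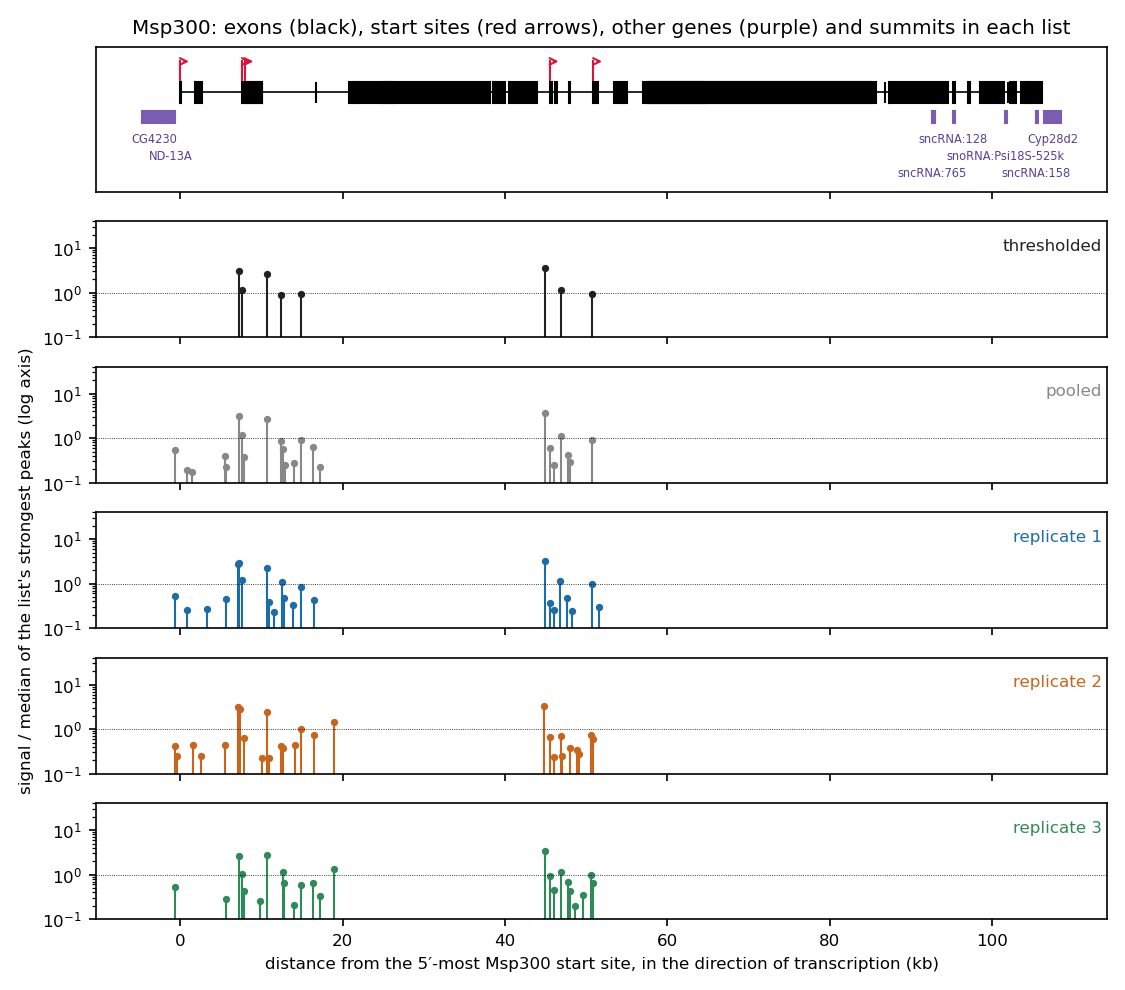
Map of *Msp300* drawn as that of *klar* (kb from the 5′-most start site; relative signal of every summit in each list on a log axis). Summits stand in 2 groups, up to about 20 kb and at 45 to 52 kb, and the 54.6 kb of mostly exonic sequence beyond hold none in any list.

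Both motor heavy chain genes held the median count of coding genes within 25% of their length, 1 for *Dhc64C* and 0 for *Khc*. *Dhc64C* (FBgn0261797; chr3L:4807368-4825687, minus strand), the heavy chain of cytoplasmic dynein, had 1, at 4825052 and 635 bp downstream of its single start site, in the first intron of all 8 transcripts. Its relative signals were 2.21, 1.77 and 1.54 (mean 1.84 ± 0.34, rank 1019), and each replicate listed exactly 1 summit in the gene. It is outside the 500 bp promoter distance and inside 1000 bp, so with that wider distance 6 of the 8 genes have a promoter summit, against 26.5% of coding genes.

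*Khc* (FBgn0001308; chr2R:16266960-16271971, minus strand, 5012 bp), the kinesin-1 heavy chain, had 0 thresholded and 0 pooled summits. Replicate 1 listed 0, and replicates 2 and 3 listed 2 each, the best of rank 14402 and 8679. The nearest thresholded summit was 7977 bp upstream of its start site. Among coding genes of 5 to 10 kb, 49.2% had a summit by the same rule, and among those of 1 to 5 kb, 35.3%. Of 1563 coding genes within 25% of the length of *Khc*, 701 held a summit and 862 held none.

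*BicD* (FBgn0000183; chr2L:17459605-17473215, minus strand, 13611 bp), the adaptor that joins dynein to cargo, had 2. The one 55 bp upstream of its start site had relative signals of 0.791, 0.803 and 1.14 (mean 0.911 ± 0.198, rank 3627). The other, in the first intron of all 4 transcripts, had 1.33, 1.57 and 1.46 (mean 1.45 ± 0.12, rank 1569). It is 769 bp upstream of the start site of *Sgt*, which encodes a co-chaperone and overlaps *BicD*, and 2381 bp from that of *BicD*. The summit in the intron was the stronger one in every replicate.

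Of the droplet genes, *Lsd-2* (FBgn0030608; chrX:15069127-15076220, minus strand, 7094 bp) had 2 summits. The one 32 bp downstream of its start site had relative signals of 0.718, 0.873 and 1.03 (mean 0.874 ± 0.156, rank 4837). The one in the first intron of all 5 transcripts, 1229 bp in, had 1.75 and 1.03 in replicates 1 and 3, while no peak of replicate 2 contained it. Replicate 2 did list a peak of rank 2491 beside it, whose summit was 60 bp away and whose edge was 14 bp away. Of the 2, 1 was kept without replicate 1, 2 without replicate 2 and 1 without replicate 3. *Halo* (FBgn0001174; chr2L:1517533-1518148, minus strand), a gene of 616 bp that directs droplet movement in the early embryo, had 0 summits in all 5 lists, and the nearest thresholded summit was 18654 bp away. Among coding genes up to 1 kb long, 23.5% had a summit.

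**Figure D4:**
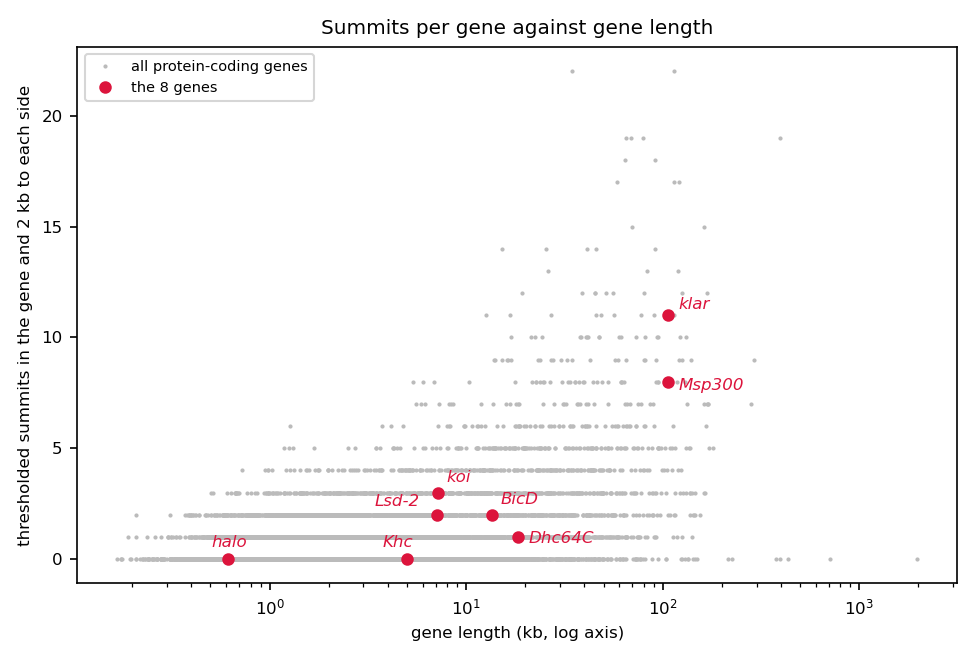
Thresholded summits in each protein-coding gene and 2 kb to each side (vertical axis) against gene length in kb (log axis), with the 8 genes in red. *Klar* and *Msp300*, at 107 and 106 kb, hold 11 and 8 summits, *koi*, *Lsd-2*, *BicD* and *Dhc64C* hold 1 to 3, and *Khc* and *halo* hold 0.

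Beyond these 8, a list of 47 other genes of the same machinery was examined, covering dynein, dynactin, kinesins, the cargo adaptor *egl*, the nuclear envelope and lipid droplets. It was written with earlier results of these data known, and its counts are descriptions. A promoter summit stood at 22 of the 47 (46.8%), against 22.8% of all coding genes, and 32 held a summit in the gene and 2 kb, against 39.6%. Neither share was matched for gene length. The groups gave 5 of 8 dynein genes, 3 of 10 dynactin genes, 6 of 10 kinesin genes and partners, 2 of 9 nuclear envelope genes and 5 of 9 lipid droplet genes, and *egl*. Most of these peaks were of middling strength, with a median rank of 3304. Of the 22, 17 lay upstream of the start site, a share that is not given for all promoter summits. All 3 replicates listed 20 of the 22, against 93.6% of all thresholded summits.

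The strongest was at *unc-104*, a kinesin-3 motor that carries synaptic vesicle precursors, with rank 62 in the thresholded list and 55, 66 and 75 in the replicates, 304 bp from its start site and as far from that of *CG42392*. Next came *Lpin*, an enzyme of triglyceride synthesis, with rank 223 (204, 285 and 253), 243 bp upstream. *Lis-1*, a dynein regulator, had rank 699 (667, 642 and 1227). *Bmm*, a triglyceride lipase of droplets, had rank 910 (1729, 1441 and 637), with the start site of *Tdrd3* nearer to the summit. *Seipin* (rank 1392) and *sturkopf* (3642), both droplet genes, were each listed in only 2 replicates, *Seipin* not in replicate 3 and *sturkopf* not in replicate 2. The nearest start site belonged to another gene for 6 of the 22: *DCTN6-p27*, *cpa*, *Kap3*, *bocks*, *bmm* and *sturkopf*. *LamC*, an A-type lamin, had the weakest of the 22, at rank 7086.

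**Figure D5:**
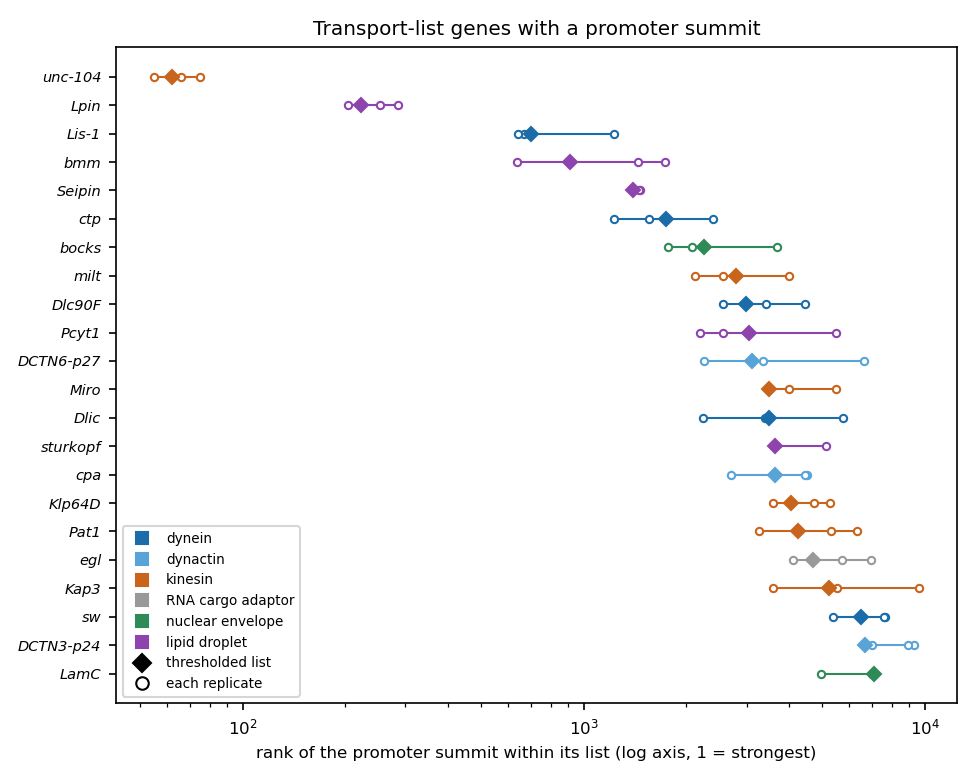
Rank of the promoter summit (log axis, 1 is the strongest) of the 22 listed transport genes that have one, in the thresholded list (diamonds) and in each replicate (open circles), coloured by group. *unc-104* and *Lpin* lie at the strong end with replicates close together. The other genes spread up to rank 7086 in the thresholded list and up to 9596 in a replicate (*Kap3*, replicate 3).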

How the data were processed

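ChIP-seq peaks of GFP-tagged CG13894 were used as deposited, as narrowPeak lists on dm6. Per the labels' file notes, the authors called peaks on each of 3 replicates and on the pooled replicates, using a control alignment. The thresholded list is their optimal set under a cutoff on the irreproducible discovery rate. Its value, the aligner and the caller are not given in the sources. The deposited signal is the peak caller's own value; it was used within a list only. The deposited summit offset from the peak start gave the summit (1-based); in 5 thresholded peaks it was set to the last base. The label's age field holds no usable age, so the 2 to 24 h of the source description was used.

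Genes were those of Ensembl release 115 without pseudogenes and transposons (17896, of which 13945 protein-coding); 30540 of 30593 start codons (99.8%) read ATG on the Release 6 genome. A summit took the first fitting class of promoter, 5′ UTR, coding exon, 3′ UTR, other transcribed, intron and intergenic. Genes named are the 8, those inside *klar*, those with the start site nearest to a summit of the 8, the transport genes with a promoter summit, and the genes closest to *klar* in length with its count of summits. The members and lists were chosen with earlier results of these data known, so no test was made. No read counts are given, so depth and the precision it gives are unknown. Alternatives were other promoter distances and flanks, the stronger 50% of peaks, joined regions and leaving out each replicate. Counting was checked on simulated data. Python 3.11.15, pandas 2.3.3, numpy 2.4.6 and matplotlib 3.10.9 were used.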

Additional observations from a re-analysis of the deposited data

How the results depend on the processing

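The count of genes with any summit was 6 under every alternative run. No share of all coding genes is given for these alternatives, so that count has no background to be read against. The count with a promoter summit was 4 among the stronger 50% of peaks, 6 within 1000 bp and 5 otherwise. All coding genes gave 14.2%, 26.5% and, within 200 bp, 18.1%. Without replicate 1, 2 or 3, all coding genes gave 17.5%, 17.8% and 17.6%, and no share is given for each replicate's own strongest peaks. The 27 summits of the genes became 17 among the stronger 50% of peaks, where *klar* kept 6, *Msp300* 5 and *Lsd-2* 1. They became 19 to 23 when each replicate was left out in turn. Leaving out a replicate kept 5048 to 5286 of all 7434 thresholded summits. The gene alone, without the flanks, gave 24 in all and 1 for *BicD*, and 5 kb flanks gave 32 in all and 4 for *Lsd-2*. The 25 summits listed in all 3 replicates became 12 of 27 when 50% of both peaks had to overlap, against 59.3% of all thresholded summits. The strongest *klar* summit was of rank 4 when overlapping peaks were joined into regions and 8 in replicate 2. Of the 47 transport list genes, 15 had a promoter summit among the stronger 50% of peaks, against 14.2% of all coding genes. Within 200 bp and 1000 bp, 18 and 24 of them had one, against 18.1% and 26.5%. With no read counts, what depth limits cannot be given: absence from a list of 30000 peaks is not absence of binding. No paired analysis was possible because there was 1 group.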

Other observations

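Some of a replicate's 7434 strongest summits lie outside every pooled peak. This held for 4.87%, 5.56% and 7.34% of them in replicates 1, 2 and 3, and for 1, 2 and 3 summits of the 8 genes. Some of these stood beside thresholded summits. In *klar*, that at 484632 in replicate 3 (rank 6409) belonged to a peak that contains the thresholded summit at 484563. In *Msp300*, those at 5151455 in replicate 2 (rank 6052) and 5151448 in replicate 3 (rank 3873) lay beside the thresholded summit at 5151595. In an intron of *Msp300*, replicates 2 and 3 had summits at 5119849 (rank 1641) and 5119844 (rank 2166), 5 bp apart, and neither replicate 1 nor the pooled list had a peak there. In *BicD*, replicate 1 had a summit at 17466461 of rank 1793, where replicate 3 had a peak of rank 7508 and replicate 2 none. Just beyond the 2 kb flank of *klar*, a thresholded summit of rank 1828 stood 110 bp from the start site of *Cypl*.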
